A study of Homo sapiens with 6 samples.

Results

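The IFIT genes (interferon-induced proteins with tetratricopeptide repeats) were followed in SW480 cells, an established human colorectal cancer line. Probe sets assigned to a single gene symbol were taken where that symbol was IFIT1, IFIT2, IFIT3 or IFIT5. This gave 7 probe sets of the 54675 on the Affymetrix array, and 4 genes of the 19777 that a single-gene probe set could name. IFIT1 had 1 probe set, and IFIT2, IFIT3 and IFIT5 had 2 each. The genes were picked as a family with the difference between the groups already known, so their levels are given as a description, without a test.

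RNA came from 3 cultures labelled as overexpressing CPEB3, an RNA-binding protein that controls polyadenylation and translation of its target mRNAs, and from 3 labelled as negative control (NC). All 6 were transfected SW480 cells kept in the same medium with serum and antibiotics. The labels call the replicates biological but name no culture date, clone, construct or time after transfection, so spreads and p-values refer to these samples and may be partly technical. Each array gave 1 normalized intensity per probe set, used here as log2, and the number of arrays limits the precision.

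CPEB3 mRNA did not pass as higher at any of its probe sets under the overexpression label, though whether these read the mRNA of a construct is not given in the sources used here. Its brightest probe set was 5.37 ± 0.03 in the CPEB3-labelled arrays and 5.32 ± 0.07 in the NC arrays (log2, SD, n = 3 each). Of its 4 probe sets, the other 3 passed as lower where overexpression was labelled (limma over all probe sets, adjusted p from 7.8e-05 to 0.0473). The most variable was lower by 1.44 on the log2 scale. All 3 were dim, with means from 1.74 to 3.75 beside a median probe set of 3.90. Groups are therefore named by label only. Arrays of a group correlated with r from 0.997 to 0.998 over all probe sets, against 0.991 to 0.992 between groups. The epithelial markers EPCAM, KRT8, KRT18 and KRT19 were bright in both groups, whereas VIL1 and CDX2 were between 4.49 and 4.85. LGALS4 was the dimmest of the 12 listed, at 3.60 in the CPEB3-labelled arrays and 3.33 in the NC arrays. Of the 11 measured leukocyte markers, 0 were lower and 1 (ITGAM) was higher at limma's adjusted p under 0.05. Of all genes, 12.5% were lower and 10.9% higher.

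IFIT proteins are built almost wholly of tetratricopeptide repeats, helical motifs that form a groove for RNA or for other proteins. IFIT1 binds mRNA whose cap lacks the ribose methyl group that host mRNA carries on its first nucleotide, and keeps such RNA from being translated. IFIT5 binds RNA with a 5′ triphosphate or monophosphate, IFIT2 and IFIT3 bind each other and IFIT1, and IFIT3 stabilises IFIT1 and strengthens its binding to caps. In epithelial cells type I or type III interferon, or direct activation of IRF3 by RNA sensors, raises their expression through interferon-stimulated response elements (ISREs).

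The promoters are shown because the 4 genes were lower together and the element was found in each of the 3 whose window was held. IFIT2 was not searched. RefSeq promoter windows (GRCh38.p14, plus strand, 250 bases before the transcription start to 50 after) were held for IFIT1, IFIT3 with a pair of alternative starts, and IFIT5. They were searched on both strands for the ISRE core: TTTC, any 2 bases, then TTTC. Below are the 200 bases just before the start of IFIT1 (chr10:89392423-89392622), of the upstream start of IFIT3 (chr10:89327797-89327996) and of IFIT5 (chr10:89414368-89414567), 5′ to 3′, with matches to the core in capitals.
IFIT1: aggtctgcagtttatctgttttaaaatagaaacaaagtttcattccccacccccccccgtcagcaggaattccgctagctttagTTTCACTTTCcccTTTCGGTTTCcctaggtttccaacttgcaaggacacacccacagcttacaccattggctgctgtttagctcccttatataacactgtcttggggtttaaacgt
IFIT3: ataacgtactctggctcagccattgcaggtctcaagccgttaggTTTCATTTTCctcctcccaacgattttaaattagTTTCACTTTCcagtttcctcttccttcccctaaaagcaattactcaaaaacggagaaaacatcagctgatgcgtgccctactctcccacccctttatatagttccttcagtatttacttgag
IFIT5: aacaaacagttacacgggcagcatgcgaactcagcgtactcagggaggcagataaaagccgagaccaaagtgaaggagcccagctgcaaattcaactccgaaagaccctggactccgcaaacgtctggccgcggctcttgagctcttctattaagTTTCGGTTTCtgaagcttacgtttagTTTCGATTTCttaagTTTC

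Each of the 3 genes held at least 2 matches in its window, all on the plus strand and none overlapping another. Those of IFIT1 began at -116 and -103 relative to the start, and those of IFIT3 at -156 and -122 before the upstream start and at -94 and -51 before the other. IFIT5 held 3 matches, at -45, -19 and -4, the last of which runs across the start and is therefore cut off at the end of the printed stretch. The match TTTCACTTTC occurred in IFIT1 and in both IFIT3 windows. The core TTTCGGTTTC was shared by IFIT1 and IFIT5.

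Such a match was present in 1255 of all 35116 promoter windows (3.57%). Counted by gene, 1195 of 27305 genes (4.38%) held a match, and 85 (0.311%) held 2 or more. IFIT1B, the paralog that lies between IFIT3 and IFIT1 and has no value here, held 0 matches in its window, which says only that these letters are absent from it. Among other antiviral effector genes fixed as a list, 18 of the 24 with a window held a match, 10 of them 2 or more. A match is a description of the sequence and was not measured as a bound site.

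**Figure D1:**
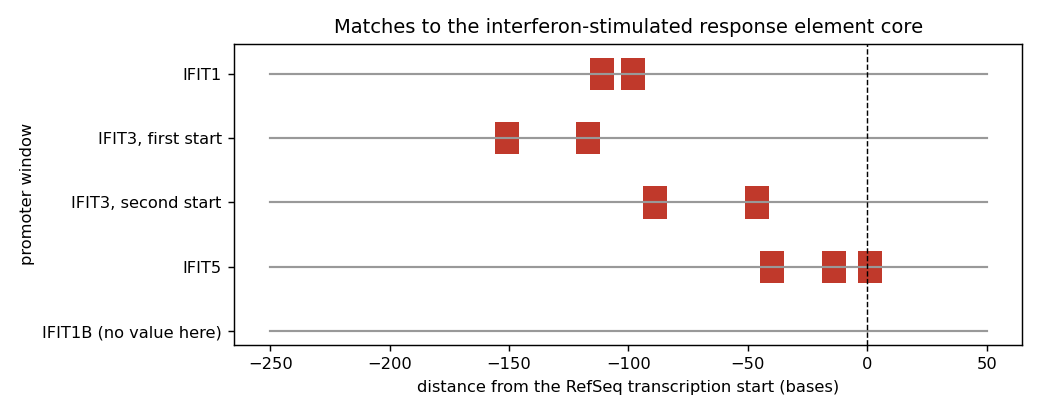
Positions of matches to the ISRE core (red blocks, 10 bases wide) in 5 promoter windows of IFIT genes, drawn to scale against the distance in bases from the RefSeq transcription start (dashed line). IFIT1 and both IFIT3 windows hold 2 matches each before the start, IFIT5 holds 3 close to it, and IFIT1B holds 0.

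All 4 genes were lower in the CPEB3-labelled arrays, and IFIT1, IFIT2 and IFIT3 were among the steepest differences on the array. At the brightest probe set of each gene, the log2 difference (CPEB3 minus NC) was -3.69 for IFIT1, -4.54 for IFIT2, -4.59 for IFIT3 and -1.30 for IFIT5. The level left was 7.73% of the control level for IFIT1, 4.31% for IFIT2, 4.17% for IFIT3 and 40.7% for IFIT5. These arrays average over a culture, so fewer cells with IFIT mRNA and less IFIT mRNA per cell cannot be told apart.

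IFIT1, which recognises the cap, was read by 203153_at. Its log2 intensity was 7.80, 8.12 and 7.92 in CPEB3-labelled replicates 1 to 3, and 11.63, 11.63 and 11.66 in the NC arrays. Every control array thus lay at least 3.51 above every array labelled CPEB3. On the linear scale the control arrays read 3162 to 3238 and the others 223 to 278. The lower level was still brighter than 92.9% of all probe sets, where in the control arrays IFIT1 exceeded 99.6% of them.

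IFIT2, an IFIT1 and IFIT3 partner that has been linked to cell death, was read by 226757_at and 217502_at. At 226757_at the log2 intensity was 4.26, 4.46 and 4.61 in the CPEB3-labelled arrays and 9.02, 8.99 and 8.92 in the NC arrays, a 23.2-fold difference. At 217502_at it was 4.98, 4.89 and 4.61 against 7.30, 7.40 and 6.97, or 5.27-fold. Neither probe set had groups that overlapped. The CPEB3-labelled arrays lay near each other at both, at 4.44 ± 0.17 and 4.82 ± 0.19 (SD, n = 3), and the probe sets parted in the control arrays.

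IFIT3, the member that holds IFIT1 complexes together, was read by 229450_at and 204747_at. At 229450_at the log2 intensity was 5.38, 5.51 and 5.58 in the CPEB3-labelled arrays and 10.11, 10.10 and 10.02 in the NC arrays, a difference of -4.59. At 204747_at it was 4.97, 4.87 and 5.15 against 7.33, 7.63 and 7.82, a difference of -2.60. The groups were again apart at both, by 4.44 and by 2.18.

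The size of the difference in IFIT2 and IFIT3 therefore depended on the probe set. The log2 ratio of 226757_at to 217502_at was -0.38 ± 0.36 in the CPEB3-labelled arrays and 1.76 ± 0.18 in the controls (SD, n = 3 each). For the IFIT3 pair it was 0.50 ± 0.12 and 2.49 ± 0.29. With the mean of both probe sets the log2 difference became -3.47 for IFIT2 and -3.59 for IFIT3, close to that of IFIT1. Which transcript each probe set reads was not analysed here, and no detection calls were used, so how far the low readings lie above background was not tested.

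IFIT5, which binds 5′ phosphorylated RNA without needing a partner, was read by 203595_s_at and 203596_s_at, both of a kind that can match several transcripts. At 203595_s_at the log2 intensity was 7.34, 7.57 and 7.54 in the CPEB3-labelled arrays and 8.81, 8.78 and 8.75 in the controls. At 203596_s_at it was 6.28, 6.47 and 6.41 against 7.71, 7.82 and 7.68. The probe sets gave nearly the same difference, 2.46-fold and 2.55-fold lower, and their log2 ratio overlapped between the groups. IFIT5 stayed brighter than 90.4% of all probe sets in the CPEB3-labelled arrays.

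**Figure D2:**
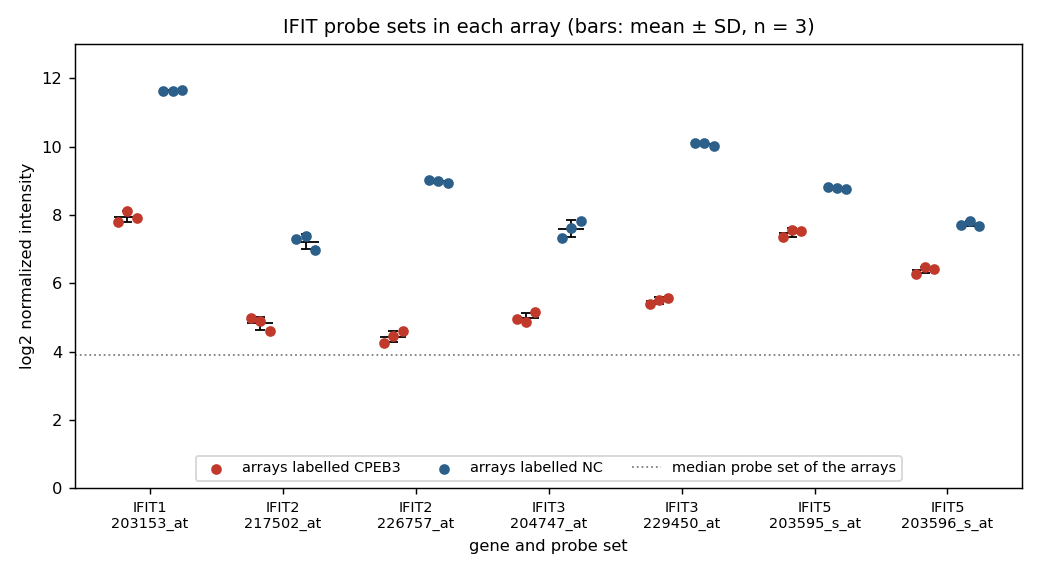
Log2 normalized intensity of the 7 IFIT probe sets in each of 6 arrays (points), with mean and SD of the 3 arrays per label (bars) and the median probe set of the arrays (dotted line). The groups are apart at every probe set, and the gap is smallest at the IFIT5 pair.

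The groups did not overlap at any of the 7 probe sets, with every array labelled CPEB3 below every control. Of all 54613 probe sets other than controls, 14.9% were lower without overlap. All 7 were at least 2-fold lower, as were 0.61% of all probe sets. Counted by gene, 0.865% were at least 2-fold lower and 0.091%, or 18 genes, at least 8-fold. Counted from the lowest difference, IFIT3 was at place 4 of 19777 genes, IFIT2 at 5, IFIT1 at 11 and IFIT5 at 108. The family was chosen on this contrast, so nothing is read from these shares. The median difference over all genes was 0.02 on the log2 scale, and the middle 95% of genes lay between -0.61 and 0.43.

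Ratios within an array, which centring an array on any constant cannot shift, show how the members differed against each other. The log2 ratio of IFIT2 to IFIT3 was -1.05 ± 0.07 in the CPEB3-labelled arrays and -1.10 ± 0.01 in the controls, with overlap between the groups. The gap of IFIT2 and of IFIT3 between the groups was thus the same within the spread of these arrays. The IFIT1 to IFIT3 ratio was 2.45 ± 0.14 against 1.56 ± 0.07, so IFIT1 was lowered less, by 0.89 on the log2 scale. The IFIT3 to IFIT5 ratio was -1.99 ± 0.06 against 1.30 ± 0.03, a shift of -3.29 (SD, n = 3 each for all ratios). These ratios use the brightest probe sets. At the dimmer probe sets the order turned, since IFIT2 (-2.40) and IFIT3 (-2.60) were lowered less than IFIT1 (-3.69).

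At the brightest probe sets, replicates were tighter in the control arrays, whereas the dimmer IFIT2 and IFIT3 probe sets had the larger SD there (0.23 against 0.19, and 0.24 against 0.14). The SD over the 3 arrays was between 0.02 and 0.05 for the brightest probe sets of the 4 genes in the controls and between 0.10 and 0.17 in the CPEB3-labelled arrays. Genes of a like level in the CPEB3-labelled arrays (within 0.5 on the log2 scale) had a median SD of 0.05 around IFIT1, 0.09 around IFIT2, 0.07 around IFIT3 and 0.06 around IFIT5, each below that of the member. In the control arrays the members' SDs were close to or below those of genes at a like level. CPEB3-labelled replicate 1 was the lowest of its group at the brightest probe set of all 4 genes, by 0.11 to 0.18 below the group mean. It was also the lowest in 19 of 28 other antiviral effectors and in 36.7% of all genes. At the dimmer IFIT2 probe set the same array was the highest of its group.

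Other antiviral effectors were lower too, and the IFIT genes were spread widely among them. Of 28 measured effector genes, 28 passed limma's test as lower (Benjamini-Hochberg adjusted p under 0.05 over all genes) and 0 as higher, where 12.5% of all genes were lower and 10.9% higher. The list was put together with earlier results of these data known, so its count is not independent evidence of direction. Its median log2 difference was -2.41, against 0.02 over all genes. In this list 20 members were at least 2-fold lower, as were 0.865% of all genes. In the order of differences over these 28 and the 4 IFIT genes, IFIT3 and IFIT2 stood at 4 and 5, behind IFI44 (-5.63), SAMD9 (-5.03) and IFI27 (-5.00), and just before OAS1 (-4.39). IFIT1 stood at 9, between CMPK2 (-3.87) and OAS3 (-3.38). IFIT5 stood at 23, between MX2 (-1.61) and the ubiquitin-like modifier ISG15 (-1.12). SAMD9L (-0.39, adjusted p = 0.0471) was the smallest of this list and lost its call without CPEB3 replicate 2 or 3 or NC replicate 1 or 2, with the replicate block, with multi-transcript probe sets left out and with spike-in centring (-0.21). MX1 (-0.64, adjusted p = 0.0177) lost it without CPEB3 replicate 2 or 3 or NC replicate 1.

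**Figure D3:**
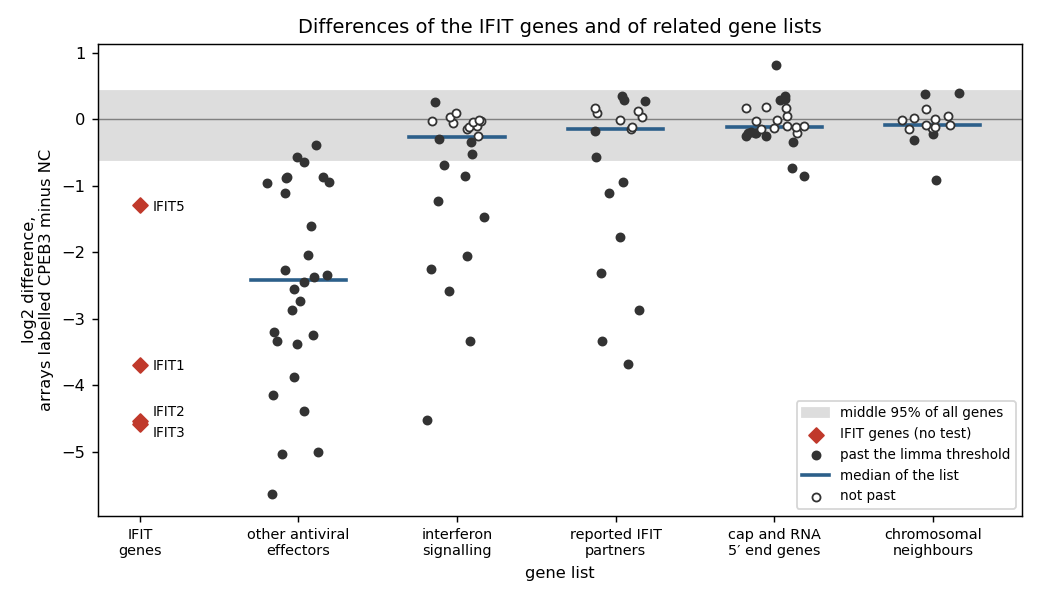
Log2 differences (CPEB3-labelled arrays minus NC) of the 4 IFIT genes (diamonds) and of the genes of 5 related lists (points, filled where limma's adjusted p was under 0.05), with list medians (blue lines) and the middle 95% of all genes (grey). IFIT1, IFIT2 and IFIT3 lie in the lower part of the range of the other antiviral effectors, and IFIT5 in the upper part.

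Among the genes that carry the interferon signal to the IFIT promoters, the transcription factors IRF9, IRF7 and IRF1 were lower. IRF3 did not pass, nor did IRF2 (-0.25), IRF5 (-0.10) and IRF8 (0.03), the smallest limma adjusted p of these being 0.169. IRF2 was dim at 1.45 in the CPEB3-labelled arrays and 1.70 in the controls, so its difference says little. The type I receptor chains and kinases were not lower. Of 24 measured genes, 12 were lower and 1 higher, beside 12.5% and 10.9% of all genes, with a median difference of -0.27. IRF9, the DNA-binding subunit of the factor ISGF3 that occupies ISREs, was 7.13 ± 0.08 in the CPEB3-labelled arrays and 8.36 ± 0.04 in the controls, a difference of -1.23 (SE 0.06; limma, Benjamini-Hochberg adjusted p = 2.58e-06). IRF7, which amplifies interferon production and also binds ISREs, fell by 2.58 on the log2 scale (SE 0.08; limma, adjusted p = 8.50e-08). IRF1 fell by 1.48 (limma, adjusted p = 7.31e-07) at its brightest probe set and by 1.31 at the other.

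IRF3, which can switch on IFIT1 and IFIT2 without interferon, was 5.92 ± 0.01 against 5.94 ± 0.05 (SD, n = 3 each), or -0.02 (limma, adjusted p = 0.826, 95% interval -0.15 to 0.11). Its sign turned with spike-in centring (0.16), with repeated quantile normalization (0.02) and without NC replicate 3 (0.01). For the receptor chain IFNAR1 the interval was -0.19 to 0.17, for the kinase JAK1 -0.21 to 0.12, and for the kinase TYK2 -0.20 to 0.14. IFNAR2, the other type I receptor chain, was the 1 gene higher (0.25; limma, adjusted p = 0.0424). That call was lost with the mean of its probe sets (0.01), with median centring and without CPEB3 replicate 1 or 3 or NC replicate 2 or 3, and the sign turned with multi-transcript probe sets left out (-0.04).

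Of the interferon genes in the list, 3 were lower, with IFNL2 at -4.53, IFNB1 at -2.25 and IFNL1 at -2.06 (largest limma adjusted p = 1.48e-06). IFNL2 has near-identical paralogs that its probe set may also read, and IFNB1 was at 2.45 in the CPEB3-labelled arrays and 4.70 in the controls, with a median probe set of 3.90. IFNA1 (0.09; limma, adjusted p = 0.459) and IFNG (-0.06; limma, adjusted p = 0.655) did not pass and were dim in both groups. IFNLR1, the specific chain of the type III receptor, fell by 0.69 at its brightest probe set and differed by 0.16 at the other. Feedback inhibitors of the pathway were lower as well. USP18, which displaces JAK1 from IFNAR2, was 10.1-fold lower, SOCS1 fell by 0.86 at 1 of its 4 probe sets and SOCS3 by 0.53. Averaging the probe sets of SOCS3 gave -0.13 and lost its call. The type II receptor chains IFNGR1 (-0.35) and IFNGR2 (-0.29) completed the 12, and both calls were lost with spike-in centring, that of IFNGR1 also with other choices of probe set.

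IFIT1 distinguishes RNA by its cap, so genes that make, bind or remove caps and 5′ phosphates were taken as a list. Of 25 measured, 9 were lower and 4 higher, a mix beside a background of 12.5% lower and 10.9% higher, with a median of -0.12. That 0 members changed 2-fold says little, since only 0.865% of all genes were at least 2-fold lower. CMTR1, which adds the ribose methyl group on the first nucleotide that IFIT1 fails to bind, was 5.33 ± 0.07 in the CPEB3-labelled arrays and 6.07 ± 0.06 in the controls (SD, n = 3), without overlap. Its fall of 0.74 on the log2 scale (SE 0.06; limma, Benjamini-Hochberg adjusted p = 6.11e-05) was 1.67-fold. CMTR2, which methylates the second nucleotide, fell by 0.35 (SE 0.09; limma, adjusted p = 0.0199), a call lost without CPEB3 replicate 1 or NC replicate 1 and with spike-in centring.

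Genes that take caps off, or activate those that do, moved both ways. DCP1A, the activator of the decapping enzyme DCP2, fell by 0.86 (limma, Benjamini-Hochberg adjusted p = 2.56e-05) at its brightest probe set and by 0.69 at the other. DCP2 itself fell by 0.20 (limma, adjusted p = 0.0423) and the decapping enzyme DCPS by 0.21 (limma, adjusted p = 0.0396). The DCP2 call was lost without any 1 of the 6 arrays, and that of DCPS without any array except NC replicate 1. NUDT3, a hydrolase that can remove caps, rose by 0.81 (limma, adjusted p = 5.51e-05), with 4 of its 5 probe sets higher. PCIF1, which methylates the first adenosine after the cap, rose by 0.34, and LARP1, which binds the cap of ribosomal protein mRNAs, fell by 0.26 at 1 of its 4 probe sets, a call lost with the mean of these. DUSP11, a phosphatase that trims the 5′ triphosphates bound by IFIT5, differed by -0.10 (95% interval -0.24 to 0.03; limma, adjusted p = 0.255). The 9 lower genes became 4 without CPEB3 replicate 1, CPEB3 replicate 2, NC replicate 2 or NC replicate 3, 5 without CPEB3 replicate 3, and 4 with the replicate number as a block. CMTR1 and DCP1A kept their calls in each of these fits.

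Several genes whose products have been reported to bind IFIT proteins or act beside them were lower, most of them known as interferon-induced. Of 19 measured, 9 were lower and 3 higher, beside 12.5% and 10.9% of all genes. The RNA sensors IFIH1 (-3.67) and RIGI (-2.31), the latter a reported IFIT5 partner, were lower at all 3 of their probe sets each. The ISG15 ligase HERC5 was at -3.33, RSAD2 at -2.87, the ISG15-conjugating enzyme UBE2L6 at -1.77 and ISG15 at -1.12, the largest limma adjusted p of these 6 being 1.93e-06. HERC5, RSAD2, ISG15, OAS2 and ZC3HAV1 are also in the effector list.

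Of the other partners, 0 changed 2-fold at the brightest probe set, beside 0.865% of all genes at least 2-fold lower. ZC3HAV1, the antiviral protein ZAP, was at -0.94 there. All 3 ZC3HAV1 probe sets were lower, the lowest at -2.84. EIF3E, the translation factor subunit bound by IFIT1 and IFIT2, differed by 0.09 (95% interval -0.04 to 0.21; limma, adjusted p = 0.305). Spike-in centring took it past the threshold at 0.26. EIF3C, bound by IFIT2, was dim in both groups (3.19 and 3.21), so its difference of -0.02 says little, and its sign turned with spike-in centring and without CPEB3 replicate 2, NC replicate 1 or NC replicate 3. MAVS, the adaptor that IFIT3 joins to TBK1, rose by 0.27 (limma, adjusted p = 0.0102), and TBK1 fell by 0.17 (limma, adjusted p = 0.0486), a call lost without any 1 of the 6 arrays and with the replicate number as a block, its sign turning with spike-in centring (0.00). COPS5, a reported IFIT3 partner, rose by 0.28 (limma, adjusted p = 0.0221), which was lost without CPEB3 replicate 1, NC replicate 1 or NC replicate 3.

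The IFIT genes lie side by side on chromosome 10, in the order IFIT2, IFIT3, IFIT1B, IFIT1 and IFIT5, with 0 other protein-coding genes between them in RefSeq. The genes next to the cluster differed by far less than IFIT1, IFIT2 and IFIT3. The nearest measured gene before IFIT2 is LIPA, a lysosomal lipase, at 8.20 ± 0.02 against 8.18 ± 0.10 (SD, n = 3 each), a difference of 0.02 (95% interval -0.13 to 0.17; limma, adjusted p = 0.842), with its sign turned by the mean of its probe sets, by its other probe set and without NC replicate 1 (each below 0). The nearest measured genes after IFIT5 are PANK1, an enzyme of coenzyme A synthesis (0.15, 95% interval -0.01 to 0.31), and the mitotic kinesin KIF20B (-0.22; limma, adjusted p = 0.0226), whose call was lost without any 1 of the CPEB3-labelled arrays and whose sign turned with the mean of its probe sets (0.03).

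Of the 10 nearest protein-coding genes on either side, 15 were measured. Of these, 3 were lower and 2 higher, beside 12.5% and 10.9% of all genes. A 2-fold change was seen in 0 of the 15, which says little, as only 0.865% of all genes were at least 2-fold lower. CH25H, itself known as an interferon-induced gene, was dim in both groups at 1.57 and 1.68, and its direction was not settled. FAS, the death receptor 3 genes before the cluster, rose by 0.38 (SE 0.06; limma, adjusted p = 0.00188), with 4 of its 5 probe sets higher. ANKRD22 rose by 0.40 at its brightest probe set and by 0.28 at the other. TNKS2 fell by 0.92 (limma, adjusted p = 4.78e-05) at the farthest place after the cluster, but was 0.12 higher with multi-transcript probe sets left out, and PCGF5 fell by 0.31. HTR7 differed by -0.08, by -0.46 and past the threshold at its most variable probe set, and by 0.10 with spike-in centring. In the promoter windows of these 15 genes the ISRE core was found in 1, that of ACTA2, which differed by -0.14 (limma, adjusted p = 0.200; 0.04 with spike-in centring).

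**Figure D4:**
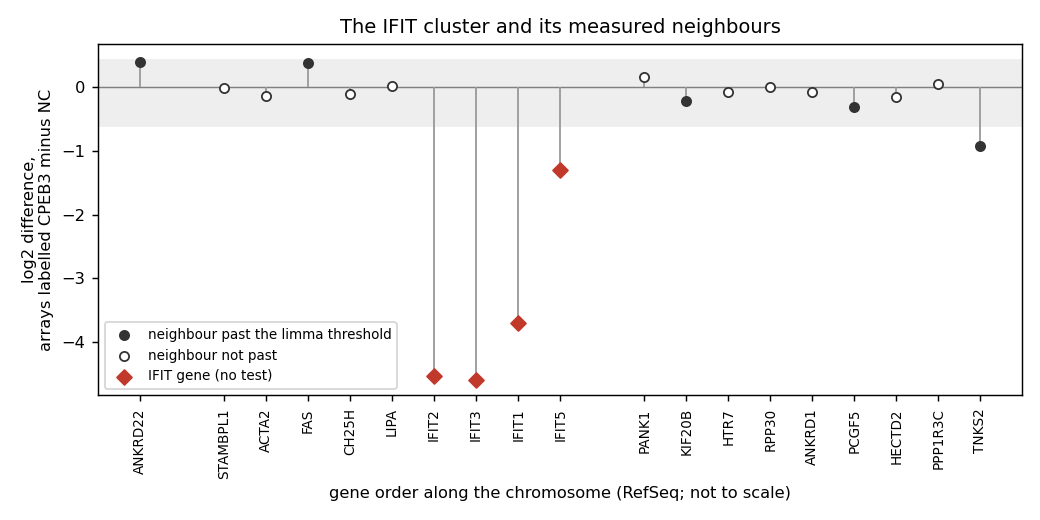
Log2 differences (CPEB3-labelled arrays minus NC) of the 4 IFIT genes (diamonds) and 15 measured neighbours (points, filled where limma's adjusted p was under 0.05) in gene order, spacing not to scale. The neighbours lie between -0.92 and 0.40, while IFIT2, IFIT3 and IFIT1 lie below -3.5.

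The genes most like the family were found by the distance between log2 profiles over the 6 arrays, each gene centred on its own mean and compared with the mean of the 4 IFIT genes. The 8 nearest of 19773 genes were USP18, HERC5, IFIH1, OAS3, CMPK2, OASL, PSMB9 and GBP3, at distances from 0.26 to 0.58. IFIT1 was itself at 0.25 from that mean, IFIT2 at 1.24, IFIT3 at 1.30 and IFIT5 at 2.73, so the nearest genes resemble IFIT1 rather than IFIT5. USP18 read 4.83, 5.12 and 5.14 in the CPEB3-labelled arrays and 8.45, 8.29 and 8.37 in the controls. Its CPEB3-labelled replicate 1 was the lowest of the group, as at the brightest IFIT probe sets and in HERC5, CMPK2, OASL and PSMB9. IFIH1 and OAS3 were lowest in replicate 3 and GBP3 in replicate 2. The 8 genes were picked for likeness over these same arrays, and 36.7% of all genes were lowest in CPEB3-labelled replicate 1. Nothing is therefore read from the shared order of replicates. By Pearson's r, which ignores the size of a change, the 8 genes with the highest r included 4 of these. The points share 2 groups far apart, and 311 genes had r above 0.99, so r separates few of them.

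**Figure D5:**
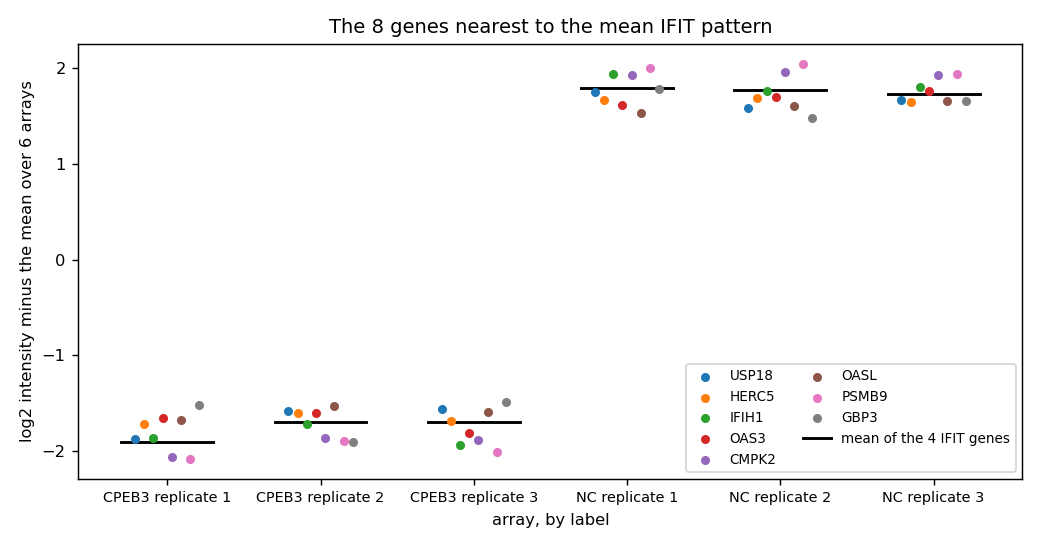
Log2 intensity minus each gene's mean over the 6 arrays, for the 8 genes nearest to the mean IFIT pattern (points) and for the mean of the 4 IFIT genes (black lines), by array. The 8 genes were picked by this likeness, so they lie around the IFIT mean in every array. All are below 0 in the CPEB3-labelled arrays.

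Markers of cells that make or answer interferon were read beside these differences. Over 5 markers of plasmacytoid dendritic cells, the main interferon producers of blood, the summed intensity was 67.6 to 74.0 in the CPEB3-labelled arrays and 71.8 to 74.4 in the controls, with 0 of 5 past the threshold. Over the 11 leukocyte markers it was 132 to 146 against 123 to 127, and PTPRC, the marker of all leukocytes, was dim at 1.62 and 1.48 on the log2 scale. Over 10 fibroblast and endothelial markers it was 185 to 197 against 174 to 181, with 1 higher and 0 lower. The 12 epithelial markers summed to 8615 to 8907 against 7816 to 7956, with KRT18 and KRT20 higher and 0 lower. These counts stand beside 12.5% of all genes lower and 10.9% higher, and nothing is read from them. Single plasmacytoid markers went both ways. LILRA4 (-0.16, without overlap) and IL3RA (-0.15) were brighter in the controls, and CLEC4C (0.04), SPIB (0.13) and TCF4 (0.14) in the CPEB3-labelled arrays. Many of these markers were dim, and whether other cells were present in the cultures was not tested.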

How the data were processed

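Per the submitters' processing notes, the authors used RMA to obtain the deposited intensities, which hold a single linear value for each probe set of an array. How RMA's log2 values were brought to that scale is not given in the sources used here. RMA makes array distributions alike, so a change of total RNA is not measured. Log2 was taken of every intensity, with no pseudocount. Probe sets with 1 gene symbol were used (41097), the brightest on average standing for its gene. Differences are CPEB3 minus NC. Tests were made with limma (version 3.58.1, R version 4.3.3) in a model of group alone, two-sided, p-values being adjusted by Benjamini-Hochberg across the 19777 genes and called at 0.05. This step was tested on simulated data.

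The members, lists and rules were chosen with earlier results of these data known. Named were the IFIT genes, CPEB3, the 8 genes nearest by distance, interferon signalling genes past the threshold, up to 6 changed genes per other list, fixed cap, translation and partner genes, and the neighbours of the cluster. A few listed genes were not analysed here. ITGAM, KRT20, PTPRC and the other cell markers come from the marker lists. PCIF1, LARP1, DUSP11, DCP2, DCPS, IRF2, IRF5, IRF8, IFNA1, IFNG, ZC3HAV1, HTR7, CH25H and ACTA2 were singled out after their values were seen. The values name no genome build. Promoters come from RefSeq.

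Alternatives were other probe set choices, filters and scalings, a replicate block, other motifs and leaving out each array.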

Additional observations from a re-analysis of the deposited data

How the results depend on the processing

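All 4 IFIT genes kept their direction under each alternative run for them. Leaving out multi-transcript probe sets or dim genes was not run for them, and both IFIT5 probe sets are of the multi-transcript kind. Centring each array on 18 hybridization spike-in probe sets raised the median of all genes to 0.20 and moved IFIT1 to -3.51, IFIT2 to -4.36, IFIT3 to -4.41 and IFIT5 to -1.12. It gave 1038 genes lower and 7767 higher in place of 2470 and 2146, with 2 interferon signalling genes higher, 2 cap genes lower and 7 higher, 6 partners higher, and 1 neighbour lower and 4 higher. With the mean of probe sets IFIT2 was -3.47 and IFIT3 -3.59, with 0 interferon signalling genes higher, as with median centring. With multi-transcript probe sets left out, 0 of those were higher, 5 cap genes were lower and 2 higher, and 1 neighbour was lower. Repeated quantile normalization left 4 cap genes lower. Pearson's r shared 4 of the 8 nearest genes.

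Leaving out 1 array at a time gave -3.78 to -3.62 for IFIT1, -4.62 to -4.45 for IFIT2, -4.63 to -4.53 for IFIT3 and -1.34 to -1.23 for IFIT5. It gave 1861 to 2412 genes lower and 1512 to 1942 higher, effectors lower 26 to 28, interferon signalling genes lower 12 to 13 and higher 0 to 1, cap genes lower 4 to 7 and higher 3 to 5, partners lower 8 to 8 and higher 2 to 3, and neighbours lower 2 to 3 and higher 2 to 2.

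Replicate numbers did not pair the samples: deviations of same-numbered arrays correlated at 0.0004, -0.0171 and 0.1178, and not every array correlated best with its own number. The replicate block left the IFIT differences as they were (IFIT1 -3.69), with 2316 genes lower and 1946 higher, and took the cap genes lower from 9 to 4. Of 207 alternative values, 175 stayed within the spread or within 1.5 times the count, and the cause of the others was not tested.

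All 3 IFIT genes with a promoter held the shorter motif, and 2, IFIT1 and IFIT3, held the longer. IFIT3 held the longer motif only in the window of its other start, which is not printed. IFIT5 and the upstream IFIT3 window held 0 matches to it. The planned identity between the IFIT proteins was not run. No background level was measured for dim readings such as IFIT2 at 4.44 in the CPEB3-labelled arrays.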
